A study of Homo sapiens with 24 samples.

Results

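The difference between 2 lung cancer cell lines in their response to the arm labelled CBX7 knockdown was measured over all genes of an RNA sequencing count table. It is the interaction of line and arm, the A549 response minus the H1299 response, where a response is the log2 fold change of the 3 libraries labelled knockdown over the 3 labelled control. The members were thus the 12 libraries of A549 and H1299, of 24 libraries from 4 cell lines, and 15847 of the 19475 genes in the table passed the filter on low counts. The groups were A549 labelled CBX7 knockdown, A549 labelled control, H1299 labelled CBX7 knockdown and H1299 labelled control. All were cultured lines that, per the extraction protocol, were infected with lentivirus carrying a hairpin, shCBX7 or shCtrl. The treatment label names siCBX7 for every library, the controls included, and the sample titles name CBX7 in both arms. Neither the hairpin sequence nor the time after infection is given, and the labels do not say that the 3 libraries of a group came from separate cultures, so p-values measure only the spread between these libraries.

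CBX7 is a chromodomain protein of Polycomb repressive complex 1 (PRC1). It reads trimethylated lysine 27 of histone H3, a mark that Polycomb repressive complex 2 (PRC2) sets, and helps to keep developmental genes and the CDKN2A locus silent. A549 is a lung adenocarcinoma line with a deleted CDKN2A locus and a KEAP1 mutation that keeps the NRF2 antioxidant programme active. H1299 is a large cell lung carcinoma line from a lymph node metastasis. CDK inhibitors such as p21 and proteins of the RB family halt the cell cycle.

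The labels and the CBX7 level ran against each other in both lines. CBX7 had 54.1, 51.5 and 51.8 CPM in A549 labelled knockdown, against 6.64, 6.16 and 5.76 CPM in A549 labelled control. It had 398, 382 and 375 CPM in H1299 labelled knockdown, against 31.1, 30.5 and 32 CPM in H1299 labelled control. CPM is a count relative to the scaled library size, not corrected for transcript length, and is given for replicates 1, 2 and 3 in that order here and below. The groups did not overlap in either line, and the level was higher in the libraries labelled knockdown. The log2 response was 3.08 ± 0.05 in A549 and 3.63 ± 0.05 in H1299 (SE, n = 3 against 3), and the interaction was -0.54 ± 0.07 (adjusted p = 1.59e-05), a difference under 2-fold. The arms are therefore named by their labels throughout, and if the 2 labels were exchanged in both lines, every response and every interaction below would change its sign.

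**Figure D1:**
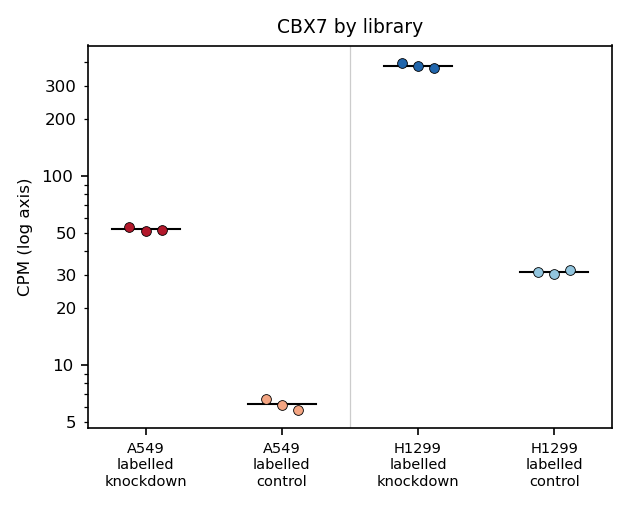
CBX7 in each of the 12 libraries as CPM on a log axis. Points are libraries and lines are group means. The 3 libraries labelled knockdown sit between 51.5 and 54.1 CPM in A549 and between 375 and 398 CPM in H1299, above every library labelled control of the same line.

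Total estimated counts ran from 71087023 to 91714111 in A549 labelled knockdown, 102258782 to 117019335 in A549 labelled control, 81938170 to 95682448 in H1299 labelled knockdown and 116616320 to 132499841 in H1299 labelled control, and between 15190 and 15844 genes had a count. CDKN2A, deleted in A549, was at 0, 0.187 and 0.564 CPM in A549 labelled knockdown and 0.108, 0 and 0 CPM in A549 labelled control. The alveolar markers SFTPC and NKX2-1 did not pass 0.320 CPM in any of the 12 libraries, but other markers of their list did. The 22 alveolar and airway markers summed to 2236 to 2443 CPM in A549 labelled knockdown and 1768 to 1857 CPM in A549 labelled control. In H1299 they summed to 426.6 to 432.9 CPM and 552.7 to 561.1 CPM. At least 1 CPM was reached by 6 to 8 of them in A549 and by 3 or 4 in H1299. The epithelial cadherin CDH1 had 236, 232 and 229.8 CPM in A549 labelled knockdown and 115, 118 and 116 CPM in A549 labelled control, and at most 0.171 CPM in H1299. The summed level of 34 epithelial genes ran the other way in A549. It was 9898 to 10340.5 CPM in labelled knockdown and 15176.6 to 15306.9 CPM in labelled control. Of the 30 tested, 8 rose and 7 fell in A549. In H1299 the sum was 1301 to 1353 CPM in labelled knockdown and 1843 to 1937 CPM in labelled control. A549 labelled knockdown replicate 1 stood apart in 14 fibroblast markers, whose summed level was 146 CPM there and 398 and 436.5 CPM in replicates 2 and 3. In bulk RNA, fewer cells of a type and less RNA per cell cannot be told apart.

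The responses of the lines differed at most of the genes tested. At an adjusted p under 0.05 in edgeR, 8870 genes (56.0% of those tested) had an interaction, 4401 (27.8%) with the A549 response above and 4469 (28.2%) with it below the H1299 response. Of these, 1187 and 1401 differed by at least 2-fold. Within A549, 3744 genes were higher (23.6%) and 4093 lower (25.8%) in labelled knockdown. With upper quartile scaling, 4764 were higher and 3105 lower in A549. Within H1299, 4909 were higher (31.0%) and 5010 lower (31.6%). With DESeq2, 5216 were higher and 5138 lower in H1299. Of 6011 genes called in both lines, 3760 moved the same way and 2251 opposite ways. Both responses and the interaction were called in opposite directions for 1041 genes that were higher in A549 and lower in H1299 (6.57%) and for 1210 that were lower in A549 and higher in H1299 (7.64%). With upper quartile scaling these were 1494 and 753 genes, and with DESeq2 1272 and 1067. A response was counted as shared where both lines were called the same way and the 95% interval of the interaction lay within 1.5-fold either way. That held for 758 genes that were higher (4.78%) and 1377 that were lower (8.69%) in labelled knockdown. A shared gene can also have an interaction called, as the helicase RECQL4 did (-0.20, adjusted p = 0.0304), so that the 2 classes overlap. The median interaction over all genes was 0.02, and the responses of the lines had a Pearson correlation of 0.16 across the 15847 genes, which are not independent replicates.

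**Figure D2:**
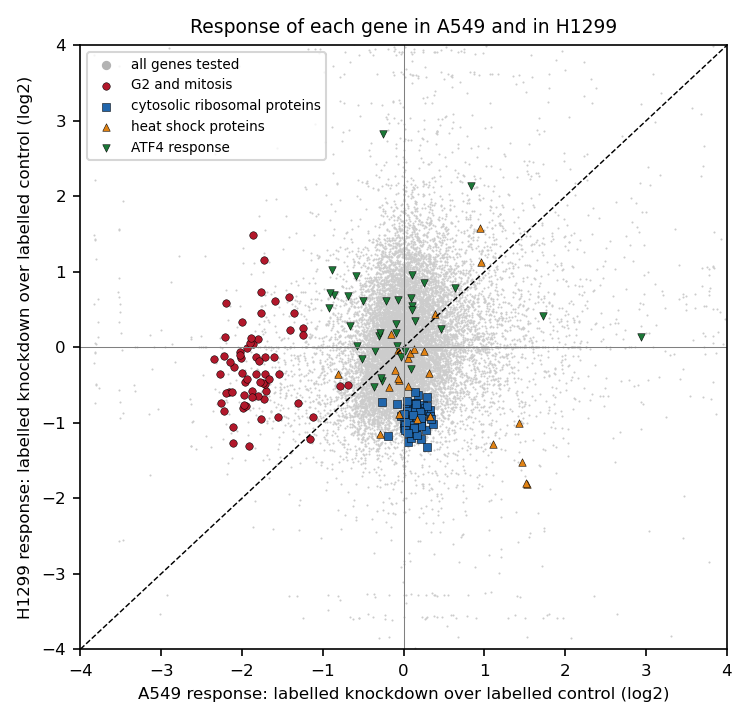
The log2 response of each gene in A549 (x axis) and H1299 (y axis), with 4 gene lists in colour. The dashed line marks equal responses, and 550 genes lie beyond the axes. The G2 and mitosis genes sit left of the line at a median of -1.86 in A549 and -0.35 in H1299, and the ribosomal proteins sit below it at 0.14 in A549 and -0.93 in H1299.

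Transcript length moved with this difference. The genes were put into 5 bins of about equal size by the length of their longest annotated transcript. From the shortest to the longest bin, the median A549 response stayed between -0.02 and 0.07, while the median H1299 response was -0.50, -0.24, -0.01, 0.28 and 0.66. The median interaction was 0.47, 0.25, 0.03, -0.23 and -0.55 over the same bins. In the bin of 75 to 1901 bases 47.5% of genes had a higher and 6.59% a lower A549 response, and in the bin of 5681 to 109224 bases 10.4% had a higher and 55.7% a lower one. Among 10267 genes that reached 5 CPM in a group of each line, length and GC content together took 2.90% of the variance of the A549 response, 50.1% of that of the H1299 response and 37.3% of that of the interaction. The summed FPKM of a library, a measure per transcript length, was 348071 to 349416 in A549 labelled knockdown and 352550 to 353037 in A549 labelled control, and 347793 to 349434 in H1299 labelled knockdown against 428665 to 435232 in H1299 labelled control. The part that length has in the interaction of single genes was not tested. Values with a smooth trend of length and GC content removed are therefore given beside those as measured for many of the lists and some of the genes. Where none is given, the value is as measured and can hold part of that trend. Of the genes called in opposite directions, 2242 had a length. Of these, 1557 (69.4%) kept responses of opposite sign once the trend was removed in each line. Over all genes tested with a length, 42.2% had opposite signs then. The 2242 were chosen for opposite responses, so that the choice itself favours a higher share among them, and the comparison is no test.

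**Figure D3:**
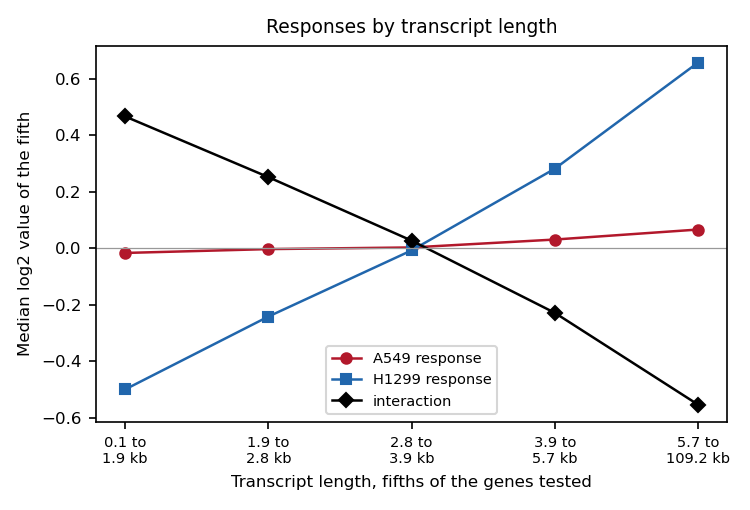
Median log2 response in A549, median log2 response in H1299 and median interaction (y axis) in 5 bins of the genes tested by transcript length (x axis, kb). The A549 medians lie between -0.02 and 0.07, and the H1299 medians run from -0.50 in the shortest to 0.66 in the longest bin.

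Genes of cell division had lower responses in A549 than in H1299 almost throughout. All 64 genes of the G2 and mitosis list were lower in A549 labelled knockdown, and 63 of them had a lower A549 response than H1299 response, with a median interaction of -1.52 that was -1.49 with the length and GC trend removed. In H1299, 44 of the 64 were lower and 13 were higher, so that 13 genes went opposite ways in the lines. These genes code for the machinery that condenses, aligns and separates chromosomes. Of 50 genes for S phase entry and DNA synthesis, 43 had a lower and 2 a higher A549 response, 49 were lower in A549, and 40 were lower and 2 higher in H1299. Their median interaction was -0.93, or -1.03 with the trend removed.

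MKI67, a protein that coats mitotic chromosomes and marks dividing cells, had 245, 242 and 251 CPM in A549 labelled knockdown, against 1149, 1121 and 1124 CPM in A549 labelled control. In H1299 it had 694, 692 and 661 CPM in labelled knockdown, against 475, 442 and 445 CPM in labelled control. The groups did not overlap in either line and stood in opposite order, with an interaction of -2.79 ± 0.04 (adjusted p = 1.32e-12). Genes in the bin of longest transcripts also rose in H1299, at a median response of 0.66. The part of length in the H1299 rises of single division genes was not tested. KNL1, the scaffold on which the spindle checkpoint is built at kinetochores, had 18.4, 17 and 19 CPM in A549 labelled knockdown and 64.3, 66.4 and 66.7 CPM in A549 labelled control, but 109.8, 103 and 106 CPM in H1299 labelled knockdown and 40.4, 34.4 and 39.1 CPM in H1299 labelled control. Its interaction of -3.35 ± 0.09 was the lowest of the list (adjusted p = 4.58e-11), and -2.52 with the trend removed. KIF14, a kinesin needed for the last step of cell division, was likewise lower in A549 and higher in H1299, at -2.88 ± 0.12. At the other end, the checkpoint protein BUB3 (-0.19) and the CDK subunit CKS1B (-0.20) fell in both lines, with responses in A549 of -0.69 and -1.13 and in H1299 of -0.50 and -0.92. Their interactions missed the threshold with upper quartile scaling, at -0.06 for BUB3 and -0.07 for CKS1B.

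The promoters of these genes share short elements that the choice of the list did not use. The cell cycle genes homology region (CHR), through which the DREAM and MuvB complexes act on G2 and mitotic genes, was searched as TTTGAA or TTCGAA on both strands in the 250 bases before each start. It was found in 30 of 54 listed promoters (55.6%), against 10.2% of the promoters of 12244 tested genes. CCAAT, the element that NF-Y binds, was found in 75.9%, against 34.3%, and both together in 46.3%, against 4.0%. Members with a CHR match had a median interaction of -1.57 (30 genes), and those without had -1.53 (24 genes). Of the listed genes that hold both elements within 160 bases of the start, 4 with low interactions are printed, 5′ to 3′ up to the base before the start (RefSeq, GRCh38.p14), with CHR and CCAAT matches on either strand in capitals. In MKI67 a CHR match shares 1 base with the CCAAT match that follows it, and in HMMR 2 CCAAT matches on opposite strands overlap.
MKI67 promoter, chr10:128126424-128126583, minus strand: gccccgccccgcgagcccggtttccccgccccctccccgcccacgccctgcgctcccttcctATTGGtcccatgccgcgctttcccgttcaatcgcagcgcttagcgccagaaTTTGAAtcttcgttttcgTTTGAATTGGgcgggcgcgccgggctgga
CKAP2L promoter, chr2:112764610-112764769, minus strand: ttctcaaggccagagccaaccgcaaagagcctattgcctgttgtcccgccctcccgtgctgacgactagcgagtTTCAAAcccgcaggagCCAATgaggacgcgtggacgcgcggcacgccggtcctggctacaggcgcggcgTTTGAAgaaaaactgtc
HMMR promoter, chr5:163460472-163460631, plus strand: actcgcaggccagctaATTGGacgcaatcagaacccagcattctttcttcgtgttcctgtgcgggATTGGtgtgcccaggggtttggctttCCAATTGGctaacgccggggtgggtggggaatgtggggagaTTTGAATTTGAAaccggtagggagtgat
ASPM promoter, chr1:197146670-197146829, minus strand: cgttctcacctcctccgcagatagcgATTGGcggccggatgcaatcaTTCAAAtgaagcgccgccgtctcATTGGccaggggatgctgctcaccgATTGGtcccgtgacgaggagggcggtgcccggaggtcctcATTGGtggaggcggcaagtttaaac
MKI67, CKAP2L and ASPM were lower in A549 and higher in H1299 labelled knockdown, with interactions of -2.79, -2.33 and -2.09. CKAP2L and ASPM are spindle proteins. HMMR, which also binds the spindle, fell in both lines, by 2.22 on the log2 scale in A549 and by 0.11 in H1299. A match is a description of the letters and not of binding.

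Most S phase genes fell in both lines. RRM2, the regulated subunit of ribonucleotide reductase, had 32.4, 29.5 and 30.7 CPM in A549 labelled knockdown and 187, 195 and 194 CPM in A549 labelled control, and 187, 188 and 198 CPM in H1299 labelled knockdown and 305, 311 and 301 CPM in H1299 labelled control. It fell in both lines, further in A549, with an interaction of -1.96 ± 0.05 (adjusted p = 5.6e-11). E2F8, a repressor of the E2F family, fell in A549 (response -2.25 ± 0.08), and its H1299 libraries overlapped between the arms (response -0.01 ± 0.07). Its interaction of -2.23 was the lowest of those called in the S phase list. The 2 members that went the other way were DUT, which removes dUTP from the nucleotide pool, at 0.51 ± 0.08, and the sliding clamp PCNA, at 0.41 ± 0.05. Both fell in each line, and further in H1299. With the trend removed PCNA was at 0.12. The repair genes POLQ, which codes for the polymerase of microhomology end joining, and XRCC2, which acts in homologous recombination, were each lower in A549 and higher in H1299, with interactions of -2.74 ± 0.09 and -2.31 ± 0.11. RBL1, which codes for the RB relative p107, stood at -2.29 ± 0.31, and ARHGAP11B at -2.22 ± 0.11. ARHGAP11B is a partial copy of ARHGAP11A, so that reads of the pair may have been split between them.

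CDKN1A, which codes for the CDK inhibitor p21, had 265, 269.8 and 271 CPM in A549 labelled knockdown and 131, 123 and 119 CPM in A549 labelled control, against 57.1, 58.2 and 54.9 CPM in H1299 labelled knockdown and 47.7, 46.8 and 46.4 CPM in H1299 labelled control. It rose in both lines and more in A549, with an interaction of 0.84 ± 0.05 (adjusted p = 4.24e-08). BAX, a pore former of the mitochondrial route to cell death, had 90.4, 89.6 and 93 CPM in A549 labelled knockdown and 63.9, 60.4 and 61.6 CPM in A549 labelled control, and 18.6, 18.2 and 19.4 CPM in H1299 labelled knockdown and 39.1, 42.2 and 38.9 CPM in H1299 labelled control. The groups did not overlap in either line, and the arms stood in opposite order (interaction 1.65 ± 0.06, adjusted p = 3.87e-10). The antiproliferative gene BTG2 also rose in A549 and fell in H1299 (1.62). SESN2 and PMAIP1, which ATF4 can raise, stood at interactions of -1.36 ± 0.08 and -1.04 ± 0.08, and both were lower in A549 and higher in H1299. THBS1, a secreted matrix protein, stood at 1.68 ± 0.08, with a fall of 1.78 on the log2 scale in H1299 and groups that overlapped in A549. BAX, THBS1, SESN2 and PMAIP1 were named from both ends of the interaction, so that their split is no count over a group of genes.

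Among the 8 CDK inhibitors 4 had a higher and 3 a lower A549 response, but the 4 include CDKN2A and CDKN2B, which were near 0 in A549. CDKN2A in H1299 had 116, 124 and 130.5 CPM in labelled knockdown, against 291, 224 and 296 CPM in labelled control, and the arms did not overlap. CDKN2B, its neighbour, had 76.1, 71.4 and 78.8 CPM in H1299 labelled knockdown and 43.7, 42.3 and 45.5 CPM in H1299 labelled control, and was at most 0.401 CPM in every A549 library. In A549 neither gene has a level on which an interaction can be read. CDKN3, a phosphatase of CDKs that peaks in mitosis, fell in both lines and further in A549 (-1.17 ± 0.06).

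Ribosomal protein genes differed between the lines almost without exception. Of 79, 78 had a higher A549 response, and the other 1 was not called. In A549, 52 rose and 3 fell, and in H1299, 78 fell, so that 52 went opposite ways. The A549 changes were small, with a median of 0.14, and the H1299 median was -0.93. The median interaction of 1.06 became 0.62 with the trend of length and GC content removed, and the median length of these transcripts was 1170 bases. RPS28, a protein of the small subunit, had 62, 58.7 and 61.2 CPM in A549 labelled knockdown and 54.2, 53.4 and 49.8 CPM in A549 labelled control, and 122, 121 and 135 CPM in H1299 labelled knockdown and 277, 303 and 301 CPM in H1299 labelled control. The arms did not overlap in either line, and the interaction was 1.43 ± 0.07 (adjusted p = 7.05e-09). RPL13 had the highest interaction (1.61 ± 0.23), and its H1299 libraries labelled knockdown ranged from 633 to 1079 CPM. RPS26 (0.45) and RPSA (0.67) were the lowest of those called. Processed pseudogenes near-identical to ribosomal protein genes are common, so that the split of reads among copies is uncertain.

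Other housekeeping lists had higher A549 responses by smaller amounts, which shrank or turned with the trend removed. Of 74 mitochondrial ribosomal proteins, 48 had a higher and 7 a lower A549 response at a median of 0.41, which turned to -0.06 with the trend removed. Of 63 nuclear genes of the respiratory chain, 53 were higher and 3 lower at a median of 0.50, or 0.11 with the trend removed. Of 36 proteasome genes, 26 were higher and 3 lower at a median of 0.29, or 0.01 with the trend removed, and the genes fell in both lines, 34 in A549 and 36 in H1299. Genes for ribosome assembly, 29 of 45 higher and 8 lower, had a median of 0.43, or 0.22 with the trend removed. FBL, the methyltransferase of the nucleolus, fell in both lines and further in H1299 (1.21 ± 0.05, or 0.48 with the trend removed). UTP20, a long transcript of the small subunit processome, fell in A549 and rose in H1299 (-0.74 ± 0.05, or -0.03 with the trend removed).

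Of the 8 genes named for the largest opposite responses with A549 higher, 5 were HSP70 genes. Heat shock proteins are chaperones that hold and refold other proteins, and HSF1 drives the inducible ones. HSPA1A, the inducible HSP70, had 319.9, 296 and 294 CPM in A549 labelled knockdown, against 109, 103 and 104 CPM in A549 labelled control. In H1299 it had 203, 195 and 199 CPM in labelled knockdown, against 705, 699 and 686 CPM in labelled control. The 4 groups were separate, with the arms in opposite order. The response was 1.53 ± 0.04 in A549 and -1.81 ± 0.04 in H1299, and the interaction 3.34 ± 0.05 (adjusted p = 1.28e-12), or 2.83 with the trend removed. HSPA1B codes for the same protein in a near-identical copy and was at 3.32 ± 0.05, so that reads of the pair cannot be assigned with certainty, and HSPA1L, which overlaps HSPA1A in the genome, was at 2.98 ± 0.48.

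HSPA8, the constitutive HSC70, had 2189, 2232 and 2209 CPM in A549 labelled knockdown and 1030.0, 1022 and 1031 CPM in A549 labelled control, against 1521, 1543 and 1551 CPM in H1299 labelled knockdown and 3786, 3840.0 and 3597 CPM in H1299 labelled control. Its interaction was 2.39 ± 0.03 (adjusted p = 1.01e-12). HSPA2, a relative most known from the testis, stood at 2.43 ± 0.09. Over the whole list of 25, 17 had a higher and 2 a lower A549 response. In A549, 13 were higher and 5 lower, in H1299, 2 were higher and 17 lower, and 9 rose in A549 and fell in H1299. The co-chaperone DNAJB1 (1.24) and the small heat shock protein HSPB1 (1.11) were among the 9. HSPA14 (-0.45) and HSPA4 (-0.33) were the 2 lower ones. The median interaction of 0.34 was 0.33 with the trend removed. HSF1 itself had a response of -0.07 in A549, which was not called, and of -0.41 in H1299, which was.

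A heat shock element, taken as GAA, TTC and GAA or TTC, GAA and TTC with 2 bases between the units, was found on either strand in 2 of 22 listed promoters (9.09%), against 0.302% of 12244. Both are shown up to the base before the start, with the element in capitals (RefSeq, GRCh38.p14).
HSPA8 promoter, chr11:123062137-123062296, minus strand: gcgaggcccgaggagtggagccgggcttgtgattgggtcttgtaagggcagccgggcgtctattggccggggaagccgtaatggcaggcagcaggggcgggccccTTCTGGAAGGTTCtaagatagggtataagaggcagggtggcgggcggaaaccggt
DNAJB6 promoter, chr7:157336844-157337003, plus strand: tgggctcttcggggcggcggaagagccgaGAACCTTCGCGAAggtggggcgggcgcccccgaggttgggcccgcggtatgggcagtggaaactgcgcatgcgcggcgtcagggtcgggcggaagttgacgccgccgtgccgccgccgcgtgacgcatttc
DNAJB6, a J-domain co-chaperone, was not called in A549 (0.05 ± 0.03) and fell in H1299 (-0.51 ± 0.03), with an interaction of 0.56. That no match was found in the other promoters says only that these letters are not in that window.

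**Figure D4:**
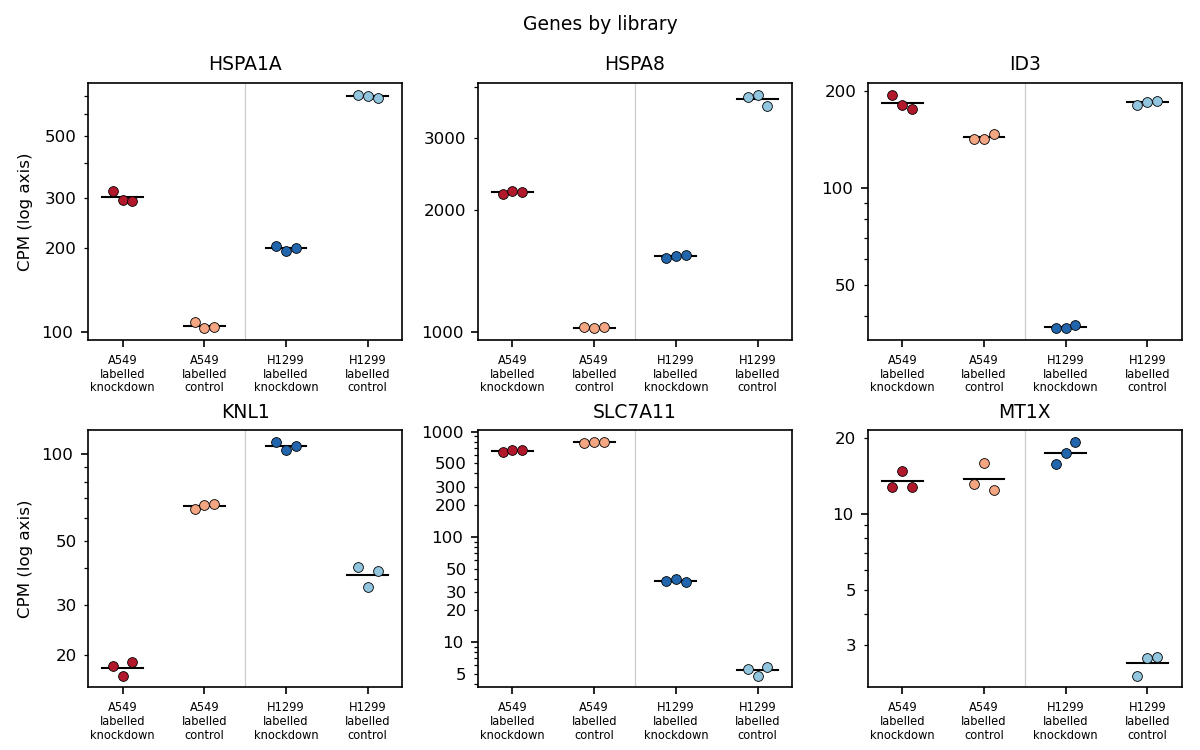
CPM of 6 genes in each of the 12 libraries on log axes, with points for libraries and lines for group means. HSPA1A, HSPA8 and ID3 were higher in A549 labelled knockdown and lower in H1299 labelled knockdown than in the controls of the line, KNL1 the reverse. SLC7A11 and MT1X were higher in H1299 labelled knockdown, while MT1X overlapped between the A549 arms.

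Most called genes of the endoplasmic reticulum stress response had a higher A549 than H1299 response. Of 25 genes of the unfolded protein response, 15 had a higher and 6 a lower A549 response, 16 were higher in A549, and 10 were higher and 10 lower in H1299. DNAJB9, which the IRE1 branch induces, had 51.3, 54.7 and 55.4 CPM in A549 labelled knockdown and 19.7, 22.2 and 21.6 CPM in A549 labelled control, and 20.0, 22.1 and 20.3 CPM in H1299 labelled knockdown and 19.1, 19.1 and 20.1 CPM in H1299 labelled control. The arms were apart in A549 alone, and the interaction was 1.25 ± 0.08. The secreted factor MANF rose in A549 and fell in H1299 (1.23 ± 0.05). The sensors ERN1 (-1.27) and ATF6 (-1.11) had the lowest interactions, and both rose in H1299 and were not called in A549.

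In the ATF4 programme, which raises amino acid supply under stress, more genes had a lower than a higher A549 response. Of 37 genes, 24 had a lower and 5 a higher A549 response. In A549, 9 were higher and 19 lower, in H1299, 22 were higher and 5 lower, and 12 fell in A549 and rose in H1299. The median interaction of -0.46 was -0.67 with the trend removed. SLC7A11, the cystine transporter that NRF2 raises too, had 639, 669.7 and 667 CPM in A549 labelled knockdown and 774, 797 and 793 CPM in A549 labelled control, against 38, 39.4 and 37.5 CPM in H1299 labelled knockdown and 5.5, 4.79 and 5.85 CPM in H1299 labelled control. Its level was far higher in A549, and its interaction was -3.09 ± 0.08 (adjusted p = 6.18e-11), or -2.21 with the trend removed. CHAC1, which breaks down glutathione, fell in A549 and rose in H1299, with -1.91 ± 0.17, and TRIB3 (-1.53), ATF3 (-1.55) and STC2 (-1.63) did likewise. CTH, the last enzyme of cysteine synthesis by transsulfuration, rose in both lines and more in A549 (1.32 ± 0.15). NRF2 targets were mixed, 18 of 38 higher and 8 lower at a median of 0.19 that turned to -0.18 with the trend removed. HMOX1, which breaks down heme, rose in A549 and fell in H1299 (1.29 ± 0.07), while GCLC, the first enzyme of glutathione synthesis, did the reverse (-0.91 ± 0.06).

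Metallothioneins and the zinc exporter SLC30A1, all targets of the zinc sensor MTF1, had lower A549 than H1299 responses where called. MT1X had 12.7, 14.8 and 12.8 CPM in A549 labelled knockdown and 13.1, 15.9 and 12.4 CPM in A549 labelled control, which overlapped, against 15.8, 17.4 and 19.3 CPM in H1299 labelled knockdown and 2.27, 2.68 and 2.7 CPM in H1299 labelled control, which did not. The interaction was -2.82 ± 0.17 (adjusted p = 2.47e-08). SLC30A1 stood at -2.08 ± 0.11 and MT2A at -1.02 ± 0.14. These 3 of the 5 members tested had an interaction and rose in H1299, while their responses in A549 were -0.04, 0.09 and 0.05, not called. The other 2 had a group with no counts.

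More genes of lipid synthesis, too, had a lower than a higher A549 response. Of 18 genes of fatty acid synthesis, 12 had a lower and 2 a higher A549 response at a median of -0.52, or -0.33 with the trend removed, and 6 fell in A549 and rose in H1299. SCD, the desaturase that makes oleate, had 1153, 1167 and 1145 CPM in A549 labelled knockdown and 1423, 1401 and 1405 CPM in A549 labelled control, against 4423, 4370.0 and 4410.0 CPM in H1299 labelled knockdown and 2135, 2124 and 2140.0 CPM in H1299 labelled control. The arms were separate in both lines, in opposite order, with an interaction of -1.33 ± 0.02 (adjusted p = 1.28e-12). ACACA, the carboxylase that starts the pathway, followed at -1.13 ± 0.04. Of 25 genes of cholesterol synthesis and uptake, 14 were lower and 4 higher at a median of -0.44, or -0.54 with the trend removed. STARD4, a sterol carrier, had 25.8, 27 and 88.4 CPM in H1299 labelled knockdown, with replicate 3 apart, and 11.1, 13 and 8.34 CPM in H1299 labelled control, and its interaction of -2.01 ± 0.63 was -1.17 without H1299 labelled knockdown replicate 3. STARD4 missed the threshold without A549 labelled knockdown replicate 1 (-1.93, adjusted p = 0.0551) and without H1299 labelled control replicate 3 (-1.85, adjusted p = 0.0576).

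More targets of TGF-beta and BMP signalling rose than fell in A549, and more fell than rose in H1299. Of 24 genes, 15 had a higher and 4 a lower A549 response. In A549, 14 were higher and 1 lower, in H1299, 7 were higher and 11 lower, and 8 rose in A549 and fell in H1299. The median interaction was 0.74, or 0.52 with the trend removed. The ID proteins, which block basic helix-loop-helix factors and are direct BMP targets, stood out by size. ID3 had 195, 182 and 177 CPM in A549 labelled knockdown and 142, 142 and 148 CPM in A549 labelled control, and 36.5, 36.6 and 37.5 CPM in H1299 labelled knockdown and 181, 186 and 187 CPM in H1299 labelled control. The interaction was 2.69 ± 0.05 (adjusted p = 7.46e-12), or 2.00 with the trend removed. ID1 and ID2 stood at 2.40 ± 0.07 and 2.10 ± 0.08, and in each the H1299 fall, -2.55 and -1.86, was the larger side. ID4 rose in A549 and fell in H1299, with 13.6, 12.9 and 13.3 CPM in A549 labelled knockdown against 3.19, 4.3 and 3.73 CPM in A549 labelled control, and an interaction of 2.88 ± 0.18. BMPER, a secreted regulator of BMPs, did the same at 3.00 ± 0.15. The receptor TGFBR2 (-1.03 ± 0.06) and the feedback repressor SKIL (-0.53 ± 0.07) rose in H1299 and were not called in A549. SKIL turned to 0.26 with the trend removed.

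Most matrix and contractile genes rose in A549 labelled knockdown, where 1 library stood apart. Of 40 genes, 27 rose and 3 fell in A549, 13 rose and 8 fell in H1299, and 16 had a higher and 6 a lower A549 response. Without A549 labelled knockdown replicate 1 the interaction was called for 19 higher and 6 lower. MYL9, a myosin light chain of contractile cells, had 3.76, 12.8 and 14.1 CPM in A549 labelled knockdown and 1.24, 1.63 and 1.12 CPM in A549 labelled control, and 63.4, 62.9 and 59.2 CPM in H1299 labelled knockdown and 103, 102 and 102 CPM in H1299 labelled control. Its interaction of 3.67 ± 0.58 (adjusted p = 0.000517), the highest among genes present in both lines by the 5 CPM limit, was 4.07 without that replicate. SPARC, a collagen-binding matrix protein, had 8.8, 37 and 44.3 CPM in A549 labelled knockdown and 4.28, 3.51 and 3.25 CPM in A549 labelled control, and an interaction of 3.46 ± 0.68, or 3.89 without it. COL6A2, a collagen VI chain, rose in A549 and fell in H1299 (2.84 ± 0.32, or 3.09 without it).

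Markers that define fibroblasts moved with these matrix genes in A549. Over the 14 fibroblast markers the summed level was 146 to 436.5 CPM in A549 labelled knockdown against 83.7 to 86.0 CPM in A549 labelled control, and 58.8 to 63.8 CPM in H1299 labelled knockdown against 73.2 to 74.9 CPM in H1299 labelled control. COL1A2 had 13.9, 75.3 and 85.6 CPM in A549 labelled knockdown and 0, 0.0517 and 0 CPM in A549 labelled control. In H1299 COL1A2 had 1.11, 1.63 and 1.04 CPM in labelled knockdown and 0, 0.143 and 0.0773 CPM in labelled control. DCN had 6.01, 30.9 and 37.1 CPM in A549 labelled knockdown and 0, 0.093 and 0 CPM in A549 labelled control. Of the 13 tested, 6 had a higher A549 response, or 9 without replicate 1. In H1299, 4 rose and 2 fell at a median response of 1.08, against the lower summed level there. FBLN1 made up most of that sum in H1299. It had 51.95, 48.71 and 49.59 CPM in labelled knockdown and 63.87, 64.77 and 65.65 CPM in labelled control. At least 1 CPM was reached by 9 or 10 of the 14 markers in A549 labelled knockdown and by 4 or 5 in A549 labelled control, and by 6 in H1299 labelled knockdown and 3 or 4 in H1299 labelled control. Between 1 and 2 of the 14 were at 0 in A549 labelled knockdown, and between 4 and 6 in A549 labelled control, and 1 to 3 in H1299 labelled knockdown and 1 to 4 in H1299 labelled control. The part of these markers in the matrix result was not tested. Blood cell markers summed to 47.4 to 49.4 CPM in A549 labelled knockdown and 40.6 to 44.5 CPM in A549 labelled control, and to 122.8 to 129.5 CPM in H1299 labelled knockdown and 81.7 to 84.2 CPM in H1299 labelled control. CD68 made up most of these sums. In H1299 it had 118.7, 113.4 and 111.0 CPM in labelled knockdown and 74.78, 73.25 and 74.99 CPM in labelled control. PTPRC, which marks all white blood cells, was at most 0.170 CPM in every library.

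Genes of clotting and other plasma proteins, a hepatocyte programme that A549 is known to express in part, differed by presence. Of 31 tested, 11 had a higher and 2 a lower A549 response, but 16 of them had a group with no counts, so their fold changes are not given. F2, the prothrombin gene, had 5.46, 4.96 and 3.96 CPM in A549 labelled knockdown and 6.45, 6.44 and 5.92 CPM in A549 labelled control, and 0, 0 and 0 CPM in H1299 labelled knockdown and 1.74, 2.4 and 2.11 CPM in H1299 labelled control. F7, for clotting factor VII, likewise had 0, 0 and 0 CPM in H1299 labelled knockdown and 1.83, 1.72 and 1.15 CPM in H1299 labelled control. F9, for factor IX, had 0, 0 and 0 CPM in A549 labelled knockdown and 0.659, 0.651 and 0.497 CPM in A549 labelled control, and 0, 0 and 0 CPM in H1299 labelled knockdown and 0.365, 0.505 and 0.515 CPM in H1299 labelled control. Of the 4 groups, the labelled controls alone held counts of F9. C3, the central complement protein, rose in A549, with 375, 367 and 358 CPM in labelled knockdown and 226, 215 and 211 CPM in labelled control, and was at most 0.333 CPM in H1299.

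Among antigen presentation and NF-kB genes more had a higher than a lower A549 response. Of 15 genes for MHC class I and peptide loading, 8 had a higher and 1 a lower A549 response, and 7 rose in A549 and fell in H1299. The median interaction of 0.64 was 0.36 with the trend removed. HLA-B had 8.52, 12.7 and 15.3 CPM in A549 labelled knockdown and 3.35, 3.51 and 3.73 CPM in A549 labelled control, and 153, 159.5 and 157 CPM in H1299 labelled knockdown and 252, 304 and 304 CPM in H1299 labelled control. The interaction was 2.66 ± 0.25 (adjusted p = 1.45e-05). A549 labelled knockdown replicate 1, which was low in fibroblast markers, was the lowest of its group here too. Without it the interaction was 2.86, and the part of those markers was not tested. HLA genes are polymorphic and alike, so that reads may have been shared among them. NLRC5, which activates these genes, was the lower one (-0.83 ± 0.14). Of 24 NF-kB and inflammatory genes, 10 had a higher and 1 a lower A549 response. RELB, a subunit of NF-kB, rose in A549 and fell in H1299, with 9.78, 11.2 and 10.3 CPM in A549 labelled knockdown against 6.27, 6.76 and 4.52 CPM in A549 labelled control and 38.1, 35 and 34.9 CPM in H1299 labelled knockdown against 85.5, 86.1 and 88.8 CPM in H1299 labelled control (2.10 ± 0.16). Of 38 interferon-induced genes, 20 rose and 4 fell in A549, and 21 rose and 4 fell in H1299. In the interaction 9 were higher and 13 lower, with a median of 0.02. Over all genes tested, 27.8% were higher and 28.2% lower, so that these interaction counts lay near the background. IFI6 had the highest (1.71 ± 0.18), and SAMD9, an antiviral gene, stood at -1.25 ± 0.08.

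Subunits of the Polycomb complexes were mixed. Of 27 PRC1 genes, 12 had a lower A549 response and PCGF1 alone a higher one (0.81 ± 0.10). In A549, 6 were higher and 8 lower, and in H1299, 16 were higher and 3 lower, CBX7 counted in both. Over all genes tested, 23.6% were higher and 25.8% lower in A549, so that the A549 counts lay near the background. In H1299, 31.0% of all genes were higher and 31.6% lower. The PRC1 median in H1299 was 0.31, or 0.09 with the trend of length and GC content removed. Of all genes, 28.2% had a lower and 27.8% a higher A549 response. BCOR, a scaffold of variant PRC1, had 81.7, 81.6 and 79.7 CPM in A549 labelled knockdown and 82.3, 76.1 and 80.3 CPM in A549 labelled control, which overlapped, against 79.5, 69.7 and 78.2 CPM in H1299 labelled knockdown and 30.0, 29.1 and 33 CPM in H1299 labelled control. Its interaction was -1.28 ± 0.08 (adjusted p = 5.17e-08). MGA, a DNA-binding subunit of another variant, followed at -1.25 ± 0.06, and at -0.36 with the trend removed. CBX2 (0.03 ± 0.16) and CBX8 (0.07 ± 0.15), which are CBX readers like CBX7, had no interaction called.

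Of 13 PRC2 genes, 8 had a lower and 3 a higher A549 response at a median of -0.63, or -0.37 with the trend removed. EZH2, the catalytic subunit and an E2F target, fell in both lines and further in A549 (-1.06 ± 0.06). SUZ12, a core subunit, fell in A549 and rose in H1299 (-1.21 ± 0.06), as did PHF19, which guides PRC2 to its sites (-1.70 ± 0.27). PHF19 had 29.1, 29 and 28.4 CPM in A549 labelled knockdown and 79.6, 42.2 and 72.6 CPM in A549 labelled control, where replicate 2 lay apart. The HOX genes are the classic Polycomb targets and pattern the body axis. Of 36 tested, 14 had a higher A549 response. In A549, 14 were higher and 1 lower, or 8 and 2 without labelled knockdown replicate 1. In H1299, 4 were higher and 13 lower, and 7 rose in A549 and fell in H1299. Of all genes tested, 27.8% had a higher A549 response, and 6.57% rose in A549 and fell in H1299. In A549, 23.6% of all genes were higher and 25.8% lower, and in H1299 31.0% and 31.6%. HOXA5 had 8.59, 7.29 and 7.7 CPM in A549 labelled knockdown and 3.22, 4.17 and 4.59 CPM in A549 labelled control, and 7.62, 6.75 and 5.72 CPM in H1299 labelled knockdown and 9.59, 10.8 and 10.4 CPM in H1299 labelled control (1.59 ± 0.20). The HOX median of 0.35 turned to -0.15 with the trend of length and GC content removed, so that the direction of the list rests on that choice. Overlapping and antisense transcripts are frequent in HOX clusters, and whether the counting used strand is not stated, so that such genes cannot be told apart.

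**Figure D5:**
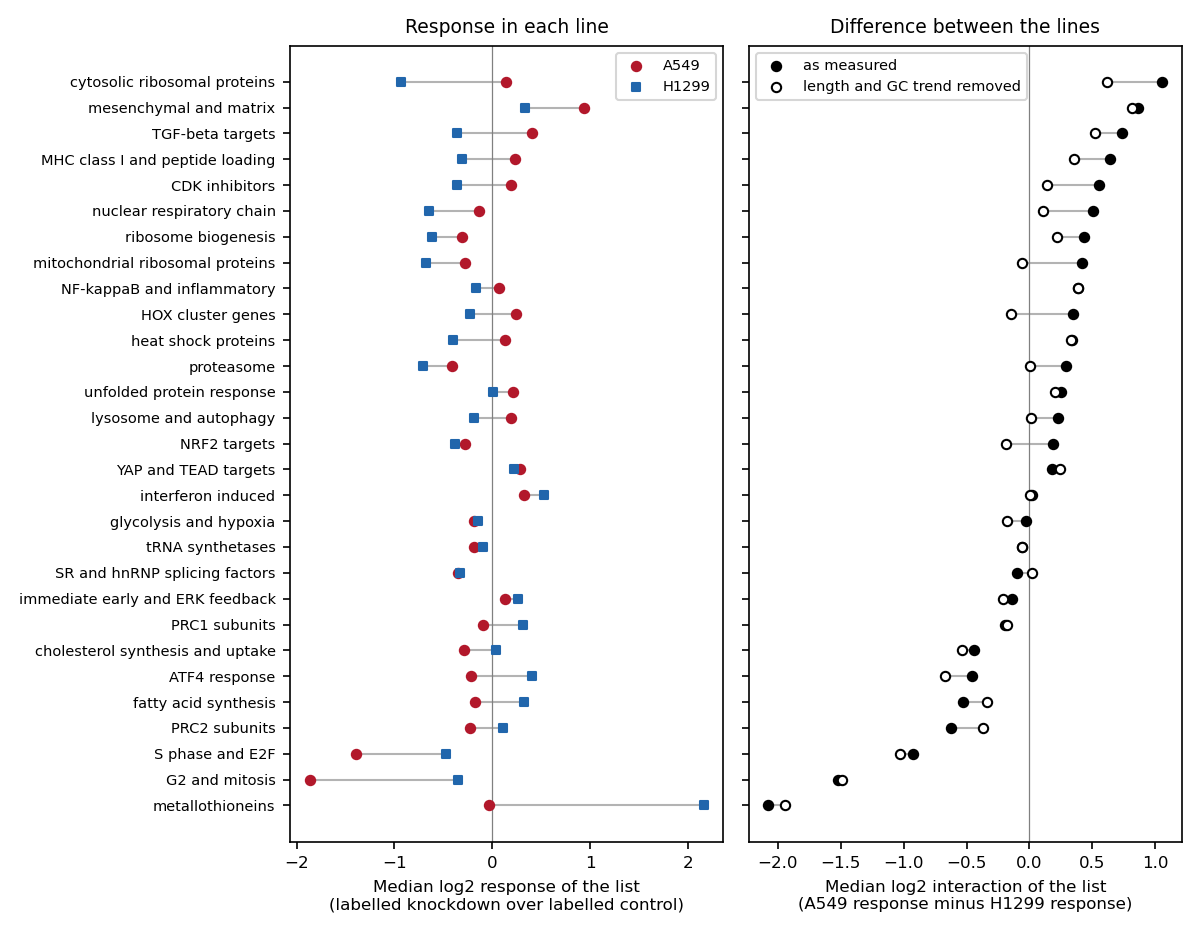
Median log2 response of 29 gene lists in A549 and H1299 (left) and their median interaction as measured and with the trend of length and GC content removed (right). The G2 and mitosis list keeps its place at -1.52 and -1.49, while mitochondrial ribosomal proteins stand at 0.41 as measured and -0.06 without the trend, and HOX genes at 0.35 and -0.15.

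Among genes above 5 CPM in both lines, the lowest interactions belonged to long transcripts that rose in H1299. ZBED6, a transcription factor derived from a transposon, had 71.8, 74.2 and 72.2 CPM in A549 labelled knockdown and 54.7, 56.8 and 57.4 CPM in A549 labelled control, against 29.4, 25.8 and 24.6 CPM in H1299 labelled knockdown and 1.23, 0.622 and 0.859 CPM in H1299 labelled control. Its interaction was -4.50 ± 0.23 (adjusted p = 6e-08), or -3.61 with the trend removed. ZBED6 and ZC3H11A overlap on the same strand in the annotation, so that reads may be shared between them. NBEAL1 (-3.83 ± 0.09), the lipid kinase PIK3C2A (-3.45 ± 0.46), DDI2, a protease that activates NFE2L1 (-3.27 ± 0.18), the aminopeptidase LNPEP (-3.19 ± 0.12) and the actin nucleator FMN1 (-3.18 ± 0.48) also rose in H1299, and A549 was not called for any of these 5. EFNB2, the ligand ephrin-B2, differed from them in that both lines were called, in opposite directions, with 3.14, 3 and 2.21 CPM in A549 labelled knockdown and 7.89, 7.7 and 7.36 CPM in A549 labelled control, and 22.4, 24.2 and 23.5 CPM in H1299 labelled knockdown and 7.24, 6.78 and 6.95 CPM in H1299 labelled control (-3.20 ± 0.16). The 8 genes of lowest interaction had transcripts of 4995 to 13529 bases, and the 8 of highest interaction 2344 to 5031 bases. With the trend removed the 8 lowest were between -3.61 and -2.26. Among the 8 highest, SLC27A3, a fatty acid transport protein, had a response of 0.61 in A549 and -2.27 in H1299, with 0.901, 1.37 and 1.37 CPM in H1299 labelled knockdown against 5.51, 5.98 and 6.15 CPM in H1299 labelled control (interaction 2.88 ± 0.33).

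Signalling targets varied gene by gene. ANKRD1, a target of YAP and TEAD, had 7.25, 7.74 and 7.53 CPM in A549 labelled knockdown and 12.6, 12.7 and 13.7 CPM in A549 labelled control, and 3.71, 2.98 and 2.51 CPM in H1299 labelled knockdown and 32, 32 and 29.7 CPM in H1299 labelled control. It fell in both lines, further in H1299 (2.56 ± 0.16, adjusted p = 3.42e-08), while the list of 24 YAP and TEAD targets was split into 10 higher and 8 lower. The AP-1 gene FOSL1 was at 1.90 ± 0.08 and the hypoxia-responsive peptide gene ADM at 1.68 ± 0.12, each rising in A549 and falling in H1299, and the immediate early factor EGR1 did the reverse at -2.03 ± 0.23. The remaining lists had called interactions in both directions, beside 27.8% higher and 28.2% lower over all genes tested. Of the genes tested, the calls were 8 higher and 8 lower of 27 immediate early genes and 11 and 13 of 34 for glycolysis and hypoxia. They were 9 and 10 of 33 tRNA synthetases, 6 and 10 of 29 splicing factors and 6 and 8 of 30 epithelial genes. For lysosome and autophagy they were 22 and 6 of 39, at a median of 0.23, or 0.01 with the trend removed. They were 1 and 3 of 14 alveolar and airway markers and 1 and 2 of 15 blood cell markers.

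Among shared responses, those named for the largest falls included replication and chromatin genes. CDT1, which licenses origins, had 16.3, 14.7 and 14.7 CPM in A549 labelled knockdown and 39, 40.6 and 36.6 CPM in A549 labelled control, and 94.6, 90.8 and 98.8 CPM in H1299 labelled knockdown and 220.4, 227 and 225 CPM in H1299 labelled control. It fell by 1.35 on the log2 scale in A549 and by 1.24 in H1299, and the 95% interval of the interaction was -0.26 to 0.05. The histone gene H2AFX (interval -0.39 to -0.12), the helicase RECQL4 (-0.36 to -0.05), the centromere protein CENPX (0.00 to 0.38) and TEDC1 (-0.06 to 0.57) also fell in both lines. Shared rises were led by ACER2, a ceramidase (-0.54 to 0.22), the nuclear receptor NR4A2 (-0.16 to 0.35), the drug exporter ABCB1 (-0.45 to 0.32), the matrix protein NPNT (-0.32 to 0.13) and ZFHX2 (0.10 to 0.50). With the trend removed the 5 that fell were between -1.08 and -0.54 in the interaction. ABCB1 had 5.58, 5.1 and 4.58 CPM in A549 labelled knockdown and 2.45, 2.37 and 2.16 CPM in A549 labelled control, and 23.6, 21.6 and 20.5 CPM in H1299 labelled knockdown and 8.97, 11.4 and 8.32 CPM in H1299 labelled control.

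Some interactions belonged to genes expressed in 1 line. There were 85 genes with an interaction that reached 5 CPM in A549 and stayed under 0.5 CPM in H1299, and 59 the other way round. COL13A1, a membrane collagen, had 0.339, 0.417 and 0.313 CPM in A549 labelled knockdown and 0, 0 and 0 CPM in A549 labelled control, and 7.54, 6.5 and 6.05 CPM in H1299 labelled knockdown and 13.8, 12.9 and 13.1 CPM in H1299 labelled control. HABP2, a plasma protease, had 4.68, 3.71 and 3.2 CPM in A549 labelled knockdown and 5.16, 5.28 and 6 CPM in A549 labelled control, and 0, 0 and 0 CPM in H1299 labelled knockdown and 0.479, 0.328 and 0.387 CPM in H1299 labelled control. BEND4 had 13.2, 12.5 and 14.7 CPM in H1299 labelled knockdown, against 5.64, 4.79 and 5 CPM in H1299 labelled control, and 0 in A549 labelled knockdown. In such genes a group with no counts leaves the fitted fold without a bound, and it is not given. Of 10334 genes that reached 5 CPM in a group of both lines, 7441 had an interaction.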

How the data were processed

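Stranded, paired-end total RNA libraries were made from each line and arm, per the labels' protocols. Per the submitters' processing notes, HISAT2 and StringTie were used with build hg19. Versions, and whether strand was used in counting, are not given in the sources used here. The deposited gene table holds estimated counts per gene that the authors made from the aligned reads, and a second table deposited by the authors holds FPKM per gene. The transcript tables were not used here. The submitters' arm label set the groups, 3 libraries each.

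The estimated counts were rounded. Genes that passed filterByExpr were scaled by TMM over the 12 libraries of A549 and H1299 and fitted with group means in edgeR 4.0.16 (R 4.3.3, robust quasi-likelihood test), with the interaction and both responses as contrasts and Benjamini-Hochberg adjustment over the 15847 genes. Called means an adjusted p under 0.05 in that test. Each adjusted p and SE in the report comes from it unless another fit or a left-out library is named. The fit was tested on simulated data with 200 changed genes on 15629 genes. There, 55.3% of 2-fold and 40.7% of 1.5-fold interactions were recovered and 3.96% of the calls were false. No other gene differed between the arms in that simulation, whereas 56.0% of genes were called in the data, so these rates need not hold here. Alternatives used DESeq2 1.42.0, limma 3.58.1 on log2(FPKM + 1), other scalings and filters, all 24 libraries, and each library left out.

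Length and GC content come from the longest GENCODE transcript of each gene symbol, and their spline trend was removed for values without a test. Promoters of 12244 genes were matched by symbol in RefSeq. The members, the 35 gene lists and the tests were chosen with earlier results of these data known. Genes were named by rule: the 8 highest and 8 lowest interactions above 5 CPM in both lines, the 8 largest opposite responses and 5 largest shared ones per direction, the 3 highest and lowest of genes expressed in 1 line, CBX7 and CDKN2A, and, for each list described and 1 that is not reported here, 2 called members from either end of the interaction. MKI67, CKAP2L, HMMR, ASPM, CDKN1A, BTG2, DNAJB1, HSPB1, DNAJB6, HSF1, TRIB3, ATF3, STC2, ID1, ID2, COL1A2, CDH1, CBX2, CBX8, EZH2, SUZ12, F9 and the marker genes SFTPC, NKX2-1 and PTPRC were named after their values were seen. Replicate numbers are shared between arms, but the deviations of same-numbered libraries correlated at -0.07 to 0.00, so the numbers were not taken as pairs. Replicates of a group differed by 8.85 to 19.0 times the counting noise of the rounded counts divided by 4, a divisor taken because values heaped near multiples of 4.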

Additional observations from a re-analysis of the deposited data

Results flagged for a closer look

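The following results were picked out because the response in A549 and in H1299 differed by the interaction test of edgeR. In 1041 genes A549 was higher and H1299 lower in labelled knockdown, and in 1210 genes A549 was lower and H1299 higher, with every response and the interaction called.

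Among genes with a higher A549 response, the interactions (log2) were 3.67 for MYL9, 3.46 for SPARC and 2.84 for COL6A2, all higher without A549 labelled knockdown replicate 1, 3.34 for HSPA1A, 3.32 for HSPA1B, 2.98 for HSPA1L, 2.39 for HSPA8 and 2.43 for HSPA2. BMPER stood at 3.00, ID4 at 2.88 and SLC27A3 at 2.88.

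Among genes with a lower A549 response, the interactions were -4.50 for ZBED6, -3.83 for NBEAL1, -3.45 for PIK3C2A, -3.27 for DDI2, -3.19 for LNPEP and -3.18 for FMN1, where A549 was not called, and -3.20 for EFNB2, where both lines were. Of the genes of division and repair, KNL1 stood at -3.35, KIF14 at -2.88, POLQ at -2.74, XRCC2 at -2.31, RBL1 at -2.29 and ARHGAP11B at -2.22. CHAC1 was at -1.91.

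CBX7 rose in both lines in labelled knockdown, less in A549 than in H1299, with an interaction of -0.54. The labels and the level of the targeted gene ran against each other in both lines, and whether the arms were exchanged was not tested. If they were in both lines, the sign of every value above would turn and its size would not.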

How the results depend on the processing

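The fit with a replicate block left the CBX7 interaction at -0.54 (adjusted p = 9.16e-05) and every count within 1.5 times its value, and the numbers do not pair the libraries. In that fit STARD4 lost its call (-1.75). Leaving out each library gave 3284 to 3767 higher and 3753 to 4107 lower genes in A549, 4655 to 4914 and 4800 to 5039 in H1299, 4190 to 4309 higher and 4266 to 4398 lower interactions, 921 to 995 and 1081 to 1207 opposite, 658 to 728 higher and 1282 to 1388 lower shared responses, and a CBX7 interaction of -0.59 to -0.49. A 2-fold limit left 1187 higher and 1401 lower interactions, 772 and 469 genes in A549, 1440 and 757 in H1299, 33 and 14 opposite and 7 and 16 shared, and CBX7, at -0.54, fell under it. All 24 libraries in one fit gave 691 and 667 opposite and 464 and 851 shared responses. Limma on log2(FPKM + 1) gave 1402 higher and 1210 lower shared genes, or 1508 and 1193 with no filter, which turned the shared balance. The CBX7 interaction there was -1.09, a difference over 2-fold, with and without the filter, and -0.66 with 0.1 added. Upper quartile scaling moved the median interaction to 0.15 and put 58.5% of the called interactions on the higher side, against 49.6% with TMM, and gave 1494 genes higher in A549 and lower in H1299 and 753 the reverse, which turned that balance. It had 4764 higher and 3105 lower genes in A549, DESeq2 4599 and 3741, and limma on log2(FPKM + 1) 4364 and 3359, so that the A549 balance turned in all of these. DESeq2 (1272 and 1067) and all 24 libraries (691 and 667) also turned the balance of opposite responses. Limma on log2(FPKM + 1) did too (1118 and 1090). The H1299 balance turned with DESeq2 (5216 and 5138), all 24 libraries (4597 and 4206) and limma on log2(FPKM + 1) (5323 and 4184). Upper quartile scaling turned CAV1 (0.0028), tRNA synthetases (0.073) and splicing factors (0.033). With at least 1 CPM the blood cell markers turned (-0.17). On log2(FPKM + 1) HABP2 (-0.092), ZFP3 (0.16), ICAM1 (-0.016), BAMBI (-0.047), TIMP3 (0.56), LAMP3 (-0.022), C3 (0.75), CDKN2B (-0.78), blood cell markers (-0.60) and CDK inhibitors (-0.78) turned. With no filter the same genes turned, and CDK inhibitors were at -0.26. With 0.1 added, TIMP3 (0.76), C3 (0.32), CDKN2B (-0.42), blood cell markers (-0.60) and CDK inhibitors (-0.42) turned. Those genes have a group at or near 0. With the trend removed, mitochondrial ribosomal proteins (-0.061), NRF2 targets (-0.18), epithelial (-0.14), HOX (-0.15) and splicing factors (0.024) turned. On log2(FPKM + 1), which understates low genes, the interaction was 2.22 for SPARC, 1.67 for BMPER, 1.32 for SLC27A3, -2.41 for ZBED6, -1.83 for NBEAL1, -2.07 for EFNB2, -1.48 for FMN1, -1.93 for SLC7A11, 1.43 for HLA-B and -0.43 for NLRC5. NLRC5 lost its call with all 24 libraries. The cause of these changes was not tested. Of 4928 values of 198 named genes over the alternatives, 20 were reversed, 208 lost and 26 gained a call. Depth limits genes near 0, where a fold has no bound.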
